A study of Homo sapiens with 2 samples.

Results

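Histone-high cells are the Nalm-6 cells in which transcripts of 6 replication-dependent histone genes took the largest share of the RNA counted. For each kept cell, the unique molecular identifiers (UMIs, 1 per captured transcript molecule) of HIST1H4C, HIST1H1B, HIST1H1D, HIST1H1E, HIST1H1C and HIST2H2AC were divided by all UMIs of the cell, and the top 15% of cells in each library were taken. This gave 620 of 4137 kept cells, namely 340 of 2267 with ETV6-RUNX1 and 280 of 1870 in the control. A barcode was kept as a cell when it showed 1000 genes or more and when mitochondrial transcripts made up no more than 10% of its UMIs.

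Nalm-6 is an established human line of acute lymphoblastic leukemia, of the B-cell precursor type. The study used Nalm-6 cells that carried a doxycycline-inducible (Tet-On) construct for either the ETV6-RUNX1 fusion, also called TEL-AML1, or luciferase (LUC control). Both cultures received 500 ng/ml doxycycline for 24 h, were depleted of dead cells with beads and went into droplet capture of poly-A RNA, so that doxycycline, the Tet-On system and the parent line were common to them. There was 1 library per construct, and the labels do not say whether each culture was a single clone.

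Replication-dependent histone genes supply the core histones and the linker histone H1 that package newly made DNA, and their messages accumulate while DNA is replicated and are degraded afterwards. Unlike other messages they normally end in a stem-loop bound by SLBP rather than in a poly-A tail, so a poly-A assay sees only the molecules that carry an A-rich stretch or a tail. HIST1H4C encodes the core histone H4, HIST1H1B, HIST1H1D, HIST1H1E and HIST1H1C encode the linker histones H1.5, H1.3, H1.4 and H1.2, and HIST2H2AC encodes an H2A. Several other genes encode the same H4 protein, and the handling of reads that match several copies is not stated in the sources used.

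The proximal promoters of the rule genes are shown first because they show what the 4 H1 genes share and which of the marked motifs HIST2H2AC lacks. The sequences are the last 160 bases before the annotated start, from RefSeq on GRCh38.p14, and 5 of the 6 genes matched (all but HIST1H4C). They lie at chr6:27867589-27867748 on the minus strand (HIST1H1B), chr6:26234988-26235147 on the minus strand (HIST1H1D), chr6:26156169-26156328 on the plus strand (HIST1H1E), chr6:26056471-26056630 on the minus strand (HIST1H1C) and chr1:149886758-149886917 on the plus strand (HIST2H2AC). All are printed 5′ to 3′ on the strand of the gene. Capitals mark the motif AAACACA, the motif CCAAT, its reverse complement (ATTGG) and the motif TATATA.
HIST1H1B: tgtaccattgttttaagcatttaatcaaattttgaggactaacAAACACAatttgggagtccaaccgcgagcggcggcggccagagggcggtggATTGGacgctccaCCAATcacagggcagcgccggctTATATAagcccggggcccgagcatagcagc
HIST1H1D: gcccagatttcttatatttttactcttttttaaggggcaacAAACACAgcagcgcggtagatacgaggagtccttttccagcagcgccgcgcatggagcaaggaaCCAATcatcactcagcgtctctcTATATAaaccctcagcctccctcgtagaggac
HIST1H1E: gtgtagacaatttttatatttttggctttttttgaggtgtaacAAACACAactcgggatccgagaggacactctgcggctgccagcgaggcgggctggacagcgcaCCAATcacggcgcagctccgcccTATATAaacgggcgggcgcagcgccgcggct
HIST1H1C: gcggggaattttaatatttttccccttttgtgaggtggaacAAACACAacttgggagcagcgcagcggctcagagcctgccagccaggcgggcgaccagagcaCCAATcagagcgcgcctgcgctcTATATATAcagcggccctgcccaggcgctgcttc
HIST2H2AC: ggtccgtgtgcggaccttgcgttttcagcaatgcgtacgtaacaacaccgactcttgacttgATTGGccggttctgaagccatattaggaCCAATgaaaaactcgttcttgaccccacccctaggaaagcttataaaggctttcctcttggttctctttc

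In the H1 promoters AAACACA began 117 (HIST1H1B, HIST1H1E) or 119 bases (HIST1H1D, HIST1H1C) before the start, CCAAT 53 to 57 bases before it and TATATA 30 to 34 bases before it, in that order and on the gene's strand in all 4. AAACACA is known as the H1 box. HIST2H2AC held CCAAT 70 bases before the start and its complement at 98 bases, and neither AAACACA nor the exact motif TATATA in this window. Its printed bases do hold the TATA-like letters tataaa shortly before the start, which the search for TATATA does not match. Searched on both strands in the 250 bases before the start, AAACACA occurred in 4.82% of 35116 annotated promoters, CCAAT in 32.0% and TATATA, which is its own reverse complement, in 3.73%. The motifs were chosen after the sequences had been read, and a match is a description of the letters.

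The histone share had a peak of cells near 0 and a broad upper range, and the histone-high cells were the top end of that range. In the ETV6-RUNX1 library the share ran from 0.898% to 1.94% of a cell's UMIs in histone-high cells (median 1.04%), against a median of 0.179% in the other kept cells. In the control library it ran from 0.909% to 2.20% (median 1.03%), against a median of 0.155%. The last cell inside the cut had 0.8984% and the first outside 0.8979% with ETV6-RUNX1, and 0.9085% and 0.9072% in the control, so nothing separates the cells on either side. Sequencing depth was alike on both sides of the cut, with a median of 19272 UMIs per histone-high cell against 19212 per other cell with ETV6-RUNX1, and 22745 against 22492 in the control.

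**Figure D1:**
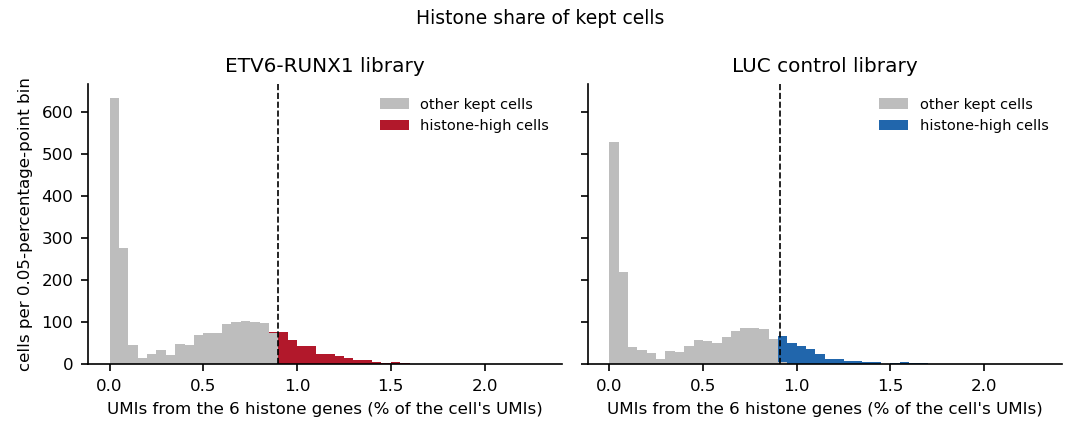
Histogram of the share of each kept cell's UMIs that came from the 6 histone genes (x axis, percent; y axis, number of cells per bin), with 1 panel per library and the histone-high cells in colour. The dashed line is the lowest share among histone-high cells, 0.898% with ETV6-RUNX1 and 0.909% in the control, and it falls on the slope of the upper range in both panels.

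The libraries hold 6455828 UMIs in histone-high cells with ETV6-RUNX1 and 6326497 in the control, so a level of 10 CPM (UMIs of a gene scaled to a fixed sum per group of cells) corresponds to 64.6 and 63.3 UMIs. Mitochondrially encoded genes took a median of 4.55% of UMIs in histone-high cells and 4.50% in the others with ETV6-RUNX1, and 4.46% and 4.34% in the control. A doublet caller marked 1 and 3 histone-high cells. The libraries shared 16 barcode sequences, of which 7 were among kept cells and 0 among histone-high cells. ETV6, whose sequence is in the fusion, had 11.3 CPM in histone-high cells of the ETV6-RUNX1 library and 7.27 in those of the control (log2 ratio 0.64, interval 0.09 to 1.20), and RUNX1 had 27.7 and 29.7 CPM. All 9 B-cell precursor markers examined were measured. Markers of T and NK cells summed to 4.03 and 6.64 CPM in histone-high cells and 4.83 and 6.18 in the others, with CD3D, CD3E, CD2 and GNLY at 0 in histone-high cells. Myeloid markers summed to between 10.8 and 13.7 CPM, mature B-cell and plasma-cell markers to between 4.11 and 7.34, epithelial and fibroblast markers to between 0 and 0.465, and erythroid and megakaryocyte markers were at 0 in every group.

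Among the rule genes HIST1H4C supplied nearly all of the signal. It stood at 9810 CPM in histone-high cells and 3178 in the others with ETV6-RUNX1, and at 10032 and 3249 in the control, and it made up 92.2% and 93.9% of the rule genes' UMIs. In the 15% of cells with the lowest share it was at 154 and 162 CPM. HIST1H1C, the next most abundant, had 231 against 87.9 CPM with ETV6-RUNX1 and 183 against 70.4 in the control. HIST1H1B had 162 against 55.7 and 125 against 48.2 CPM. HIST1H1D had 166 against 69.1 and 116 against 58.3, HIST1H1E 139 against 50.6 and 106 against 38.8, and HIST2H2AC 132 against 45.9 and 117 against 44.0. These values chose the cells and are given as a description. When each cell's UMIs were divided at random into equal sets, with cells chosen on 1 set and measured on the other, the log2 ratios of the 6 genes stayed between 0.97 and 1.62.

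A single gene therefore decided most of the membership. Ranking on HIST1H4C alone kept 94.1% and 95% of the histone-high cells, whereas ranking on the other 5 genes kept 49.7% and 41.8%. At 8700 UMIs per cell, a histone-high cell had a median of 84 and 85 HIST1H4C molecules but only 1 or 2 of each of the others, so the 5-gene share is the less precisely counted.

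Histone genes that the rule did not use were mostly higher as well. Of 10 others above 10 CPM, 6 were higher in both libraries by a log2 ratio of 0.32 or more and 0 lower. The H2A gene HIST1H2AH stood at 28.3 against 11.7 CPM with ETV6-RUNX1 and 22.9 against 9.47 in the control, a log2 ratio of 1.27 and 1.28. The H2B gene HIST1H2BC had log2 ratios of 1.06 and 0.92. HIST1H2BK, another H2B gene, had 15.2 against 17.8 CPM and 10.9 against 17.1. The other 4 were the variant genes H1FX (0.88 and 0.78), H2AFX (0.64 and 0.52), whose product marks DNA breaks when phosphorylated, H2AFV (0.45 and 0.36) and H3F3A (0.37 and 0.33). H2AFZ, another H2A variant, stood at 2041 against 1821 and 2361 against 2108 CPM, a log2 ratio of 0.16 in each library.

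With 1 library per construct no test across samples was possible, and cells of a library are not replicates. A gene was called higher or lower in histone-high cells when its CPM, from UMIs summed over cells, differed from that in the other kept cells by 0.32 or more on the log2 scale, in the same direction in both libraries, with each 95% counting interval excluding no difference. Intervals, given in parentheses, cover counting error only and leave out the spread between cells and between cultures. Because the cells were chosen by histone RNA, genes of the same cell-cycle stage had to move with it, so the calls describe these cells and test nothing.

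Of 5633 non-histone genes measured at 10 CPM or more in each library, 284 (5.04%) were higher and 161 (2.86%) lower in histone-high cells. In a single library 628 (11.1%) were higher and 514 (9.12%) lower with ETV6-RUNX1, and 460 (8.17%) higher and 285 (5.06%) lower in the control. The balance of higher and lower genes depended on the scaling. TMM scaling gave 216 higher and 234 lower genes, median-of-ratios scaling 253 and 201, and totals without histone, ribosomal protein and mitochondrial genes 225 and 229. The median log2 ratio over all measured genes was 0.02 with ETV6-RUNX1 and 0.03 in the control.

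The gene with the highest mean ratio was MXD3, a MAX-binding repressor that is expressed in cycling cells. It stood at 86.3 CPM in histone-high cells and 30.7 in the others with ETV6-RUNX1, and at 55.8 and 27.8 in the control, which is a log2 ratio of 1.49 (1.34 to 1.64) and 1.01 (0.83 to 1.18). SPC25, a subunit of the NDC80 complex that ties kinetochores to microtubules, stood at 59.9 against 29.1 and 70.8 against 33.5 CPM, a log2 ratio of 1.04 and 1.08. KIFC1, a minus-end-directed kinesin of the spindle, stood at 29.3 against 14.8 and 34.1 against 16.2 CPM. FAM111A, a protease needed at replication forks that meet obstacles, stood at 60.7 against 32.0 and 59.0 against 29.0. MKI67, the proliferation antigen that coats mitotic chromosomes, stood at 200 against 109 and 206 against 102. In each of these genes both libraries showed the difference, and in MXD3 it was the larger with ETV6-RUNX1.

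The other 10 of the 15 highest genes had mean log2 ratios between 0.79 and 0.97. These were CKAP2L, NDC80 and NUSAP1 of the spindle and kinetochore, HJURP, the chaperone of the centromeric histone CENPA, ESCO2, the acetyltransferase that locks cohesin onto replicated sisters, RAD51AP1 of homologous recombination, the E2F partner TFDP1, the repressor E2F8, which is itself an E2F target, and the CDK4 and CDK6 inhibitors CDKN2C and CDKN2D. TFDP1 differed in level between the libraries, at 16.7 against 9.58 CPM with ETV6-RUNX1 and 34.8 against 17.9 in the control, while its ratio was alike (0.80 and 0.96).

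**Figure D2:**
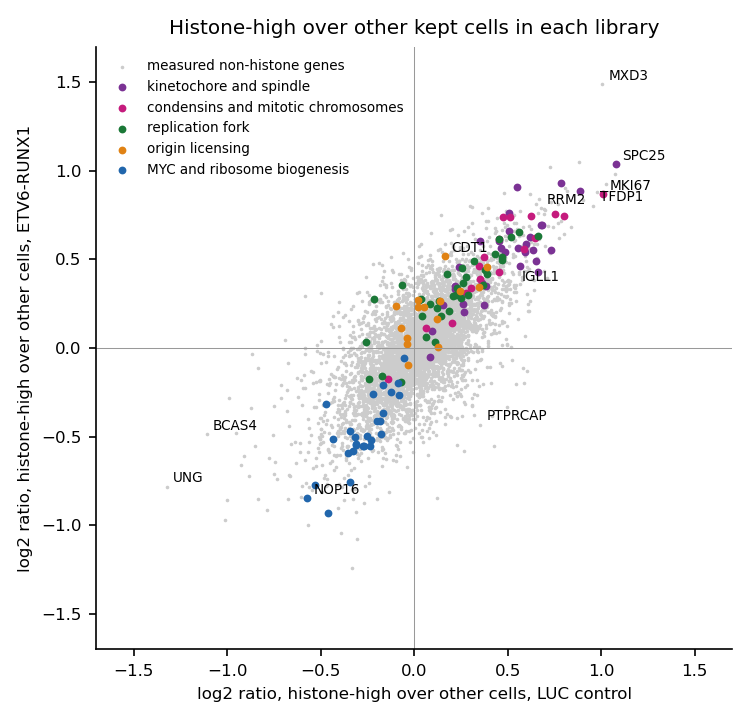
Each point is 1 of the 5633 measured non-histone genes, with the log2 ratio of histone-high over other cells in the control (x axis) and in the ETV6-RUNX1 library (y axis). Kinetochore, condensin and replication fork genes lie mostly to the upper right, ribosome biogenesis genes to the lower left, and MXD3 (1.01 and 1.49) and UNG (-1.32 and -0.78) near the ends.

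The label under which these cells were described, S phase, was checked against markers and phase calls, and the data went partly against it. Of 36 measured genes of a standard S-phase list, 16 were higher and 1 lower (background 5.04% and 2.86%), with a median log2 ratio of 0.38 and 0.29. Of 49 measured G2/M genes, 30 were higher and 0 lower, with a median of 0.45 and 0.46. Scored on these non-histone lists at 8700 UMIs per cell, 22.4% of histone-high cells (17.9 to 27.6, exact binomial interval, n = 303) were called S with ETV6-RUNX1 and 22.8% (17.9 to 28.2, n = 272) in the control. The call was G2/M in 77.6% and 77.2%. Among the other kept cells, 38.7% and 39.8% were called S and 47.2% and 46.4% G2/M.

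A G1 call was made in 0 of 303 and 0 of 272 histone-high cells, where the interval allows up to 1.21% and 1.35%, against 14.1% and 13.8% of the other cells. Thinning left out 37 and 8 histone-high cells and 187 and 76 others that were shallower. Without thinning, 24.4% and 21.1% of histone-high cells were called S. The S and G2/M scores lay within 0.05 of each other in 21.8% and 19.1% of histone-high cells. The smaller share of S calls did not go with a lower S score. In thinned cells with ETV6-RUNX1 the median S score was 0.111 in histone-high and 0.043 in other cells. In thinned cells of the control it was 0.086 and 0.027. The median G2/M score was higher too, at 0.233 against 0.081 with ETV6-RUNX1 and 0.213 against 0.063 in the control. Since most of them were called G2/M, the cells are called histone-high here and not S-phase cells.

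Single markers divided along the same line within each phase. Of 12 S-phase markers 11 were measured, of which 5 were higher and 1 lower. The higher ones were RRM2, the regulated subunit of ribonucleotide reductase (153 against 88.6 and 148 against 92.4 CPM), TYMS, thymidylate synthase (386 against 248 and 393 against 263), CLSPN, the fork protein claspin (128 against 81.1 and 119 against 80.4), the chromatin ATPase ATAD2 and PCNA, the sliding clamp (224 against 155 and 245 against 182). MCM5 of the replicative helicase and SLBP were not called, with 71.9 against 66.4 and 69.7 against 73.3 CPM and with 123 against 127 and 132 against 134. MCM2, DTL and GINS2 were not called either. MCM2 had log2 ratios of 0.27 and 0.02, and DTL 0.09 and -0.07. GINS2 had 0.03 with ETV6-RUNX1 and lay lower in the control, at -0.26 (-0.39 to -0.12). CCNE2, a cyclin E, lay under the floor of 10 CPM and could not be called, with 7.90 against 6.83 and 5.69 against 7.71 CPM. UNG, the uracil glycosylase that clears uracil at replication, had 23.9 against 41.0 and 18.5 against 46.3 CPM, a log2 ratio of -0.78 (-1.03 to -0.54) and -1.32 (-1.61 to -1.05).

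Of 10 G2/M markers, 3 were higher (MKI67, TOP2A and UBE2C) and 0 lower. TOP2A, the topoisomerase that untangles sister DNA, stood at 234 against 153 and 204 against 149 CPM. UBE2C had log2 ratios of 0.36 and 0.37. The other markers were not called. AURKA (0.40 and 0.21), HMMR (0.35 and 0.22), CENPF (0.33 and 0.23) and CCNB2 (0.20 and 0.13) lay above 0 in both libraries. CCNB1 and CDC20, known for a peak at mitosis itself, lay under 0 in both, and PLK1 only with ETV6-RUNX1. CCNB1, cyclin B1, had 50.2 against 60.9 and 53.9 against 65.2 CPM. CDC20, the activator of the anaphase-promoting complex, had 51.3 against 68.4 and 67.0 against 77.8, and the kinase gene PLK1 31.6 against 35.9 and 37.0 against 36.4.

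The order of these genes along the histone share was read from 20 equal bins of cells ranked by that share, of which the last 3 are the histone-high cells. The summed CPM of kinetochore and spindle genes and of condensin genes was highest in bin 20 of both libraries, and so were those of MXD3, MKI67, HMGB2, RRM2, PCNA and CLSPN. Over the last 3 bins MKI67 stood at 177, 192 and 235 CPM with ETV6-RUNX1 and at 174, 198 and 253 in the control. UNG was highest in bin 9 of each library, at 64.5 and 70.2 CPM, and in bin 20 had 24.0 and 12.8 CPM. MCM5 was highest in bins 12 and 11, CCNE2 in bins 12 and 10 and CDC6, an origin-loading factor, in bins 16 and 13. The bins carry no interval, and some values were close. In the control UNG had 69.7 CPM in bin 10, and MCM5 had 97.8 in bin 9 against 100 in bin 11. CCNE2 reached only 13.8 and 13.9 CPM in its highest bins, so few UMIs stand behind its place. CCNB1 and CDC20 were highest at low histone share, in bin 5 with ETV6-RUNX1 and bin 4 in the control. With ETV6-RUNX1, CCNB1 had 95.2 CPM in bin 5 and 94.6 in bin 1.

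**Figure D3:**
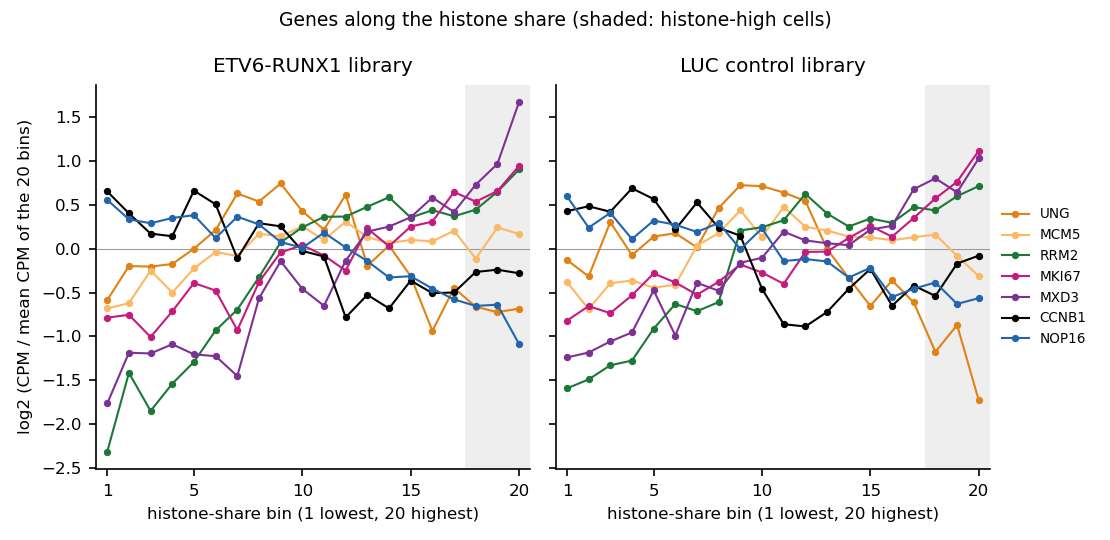
Log2 of a gene's CPM over its mean across 20 bins of cells (y axis), with cells ranked by histone share from bin 1 to bin 20 (x axis), 1 panel per library and the bins of histone-high cells shaded. MXD3, MKI67 and RRM2 climb to their highest values in bin 20, UNG is highest in bin 9, and CCNB1 and NOP16 are highest in the low bins.

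HIST1H4C and the other 5 histone genes picked cells with different non-histone RNA. By the 5 genes only, 190 cells with ETV6-RUNX1 and 177 in the control were in the top 15%, and by HIST1H4C only, as many. Of the 161 and 166 cells of the former with at least 8700 UMIs, 51.6% (43.6 to 59.5) and 53% (45.1 to 60.8) were called S. Of the 180 and 175 such cells of the latter, 16.7% (11.5 to 22.9) and 24.0% (17.9 to 31.0) were called S.

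In each library UNG, CCNE2 and MCM5, which are known for expression early in the cycle of replication, were higher in the 5-gene cells, and the mitotic genes CCNB1 and CDC20 in the HIST1H4C cells. UNG stood at 41.9 and 44.8 CPM in the 5-gene cells, with ETV6-RUNX1 and in the control, and at 21.9 and 19.6 in the HIST1H4C cells. CCNE2 stood at 12.1 and 13.4 against 4.83 and 6.40 CPM, and MCM5 at 89.3 and 97.2 against 68.1 and 69.5. CCNB1 went the other way, with 29.2 and 24.1 CPM in the 5-gene cells and 60.7 and 60.5 in the HIST1H4C cells, as did CDC20, with 28.9 and 35.1 against 58.2 and 69.0. Median depth differed too, at 16682 and 21904 UMIs in the 5-gene cells and 20896 and 24478 in the HIST1H4C cells, and its part in the result was not tested. Both rankings held 150 and 103 cells in their top 15%, and of the 127 and 99 with at least 8700 UMIs, 24.4% and 21.2% were called S.

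Some genes of the replication machinery were called higher. Over all measured genes 5.04% were higher and 2.86% lower, and the counts of this and the following lists stand beside these shares. In a short list a count of 2 rests on few genes. Of 15 origin licensing genes, 2 were higher and 0 lower, with a median log2 ratio of 0.23 with ETV6-RUNX1 and 0.05 in the control. The 2 were MCM7 of the helicase (201 against 146 and 191 against 146 CPM) and GMNN, geminin, the inhibitor that blocks a second licensing (117 against 92.4 and 128 against 101). CDT1, the loading factor that geminin binds, had log2 ratios of 0.52 (0.39 to 0.65) and 0.16 (0.02 to 0.30). Of 36 replication fork genes, 10 were higher and 0 lower, with medians of 0.30 and 0.22. They included PRIM1, the catalytic primase subunit (59.6 against 38.5 and 59.7 against 37.8 CPM), and CDC45 of the helicase (51.7 against 33.5 and 52.8 against 36.9).

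Nucleotide supply was split. Of 26 genes 6 were higher and 2 lower (5.04% and 2.86% over all genes). The median was 0.08 and 0.07 (for the mean of the libraries 0.04, and -0.005 when cells were ranked on HIST1H4C alone). RRM2 and TYMS are given above. RRM1, the large subunit of ribonucleotide reductase, had log2 ratios of 0.64 and 0.52 and TK1, the thymidine salvage kinase, 0.75 and 0.53. Replication stress and repair genes had 7 of 23 higher, with FANCI of the Fanconi anemia pathway at 0.69 and 0.61, and 1 lower, which was UNG. The medians of that list were 0.33 and 0.28.

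Genes that handle histones and chromatin behind the fork showed smaller ratios. Of 14 genes of histone mRNA synthesis and processing, 2 were higher and 0 lower (5.04% and 2.86% over all genes), with medians of 0.11 and 0.09. They were CDK2, the kinase that activates histone transcription through NPAT (22.2 against 13.7 and 25.3 against 15.4 CPM), and COIL, coilin of Cajal bodies (57.3 against 44.6 and 58.2 against 44.3). Of 27 histone chaperone and chromatin assembly genes, 5 were higher and 0 lower, with a median of 0.16 in each library. Among them were DNAJC9 (0.64 and 0.57), a chaperone of H3 and H4, HIRIP3 (0.71 and 0.53) and ASF1B (0.51 and 0.53), which hands H3 and H4 to assembly factors. Of 17 genes listed under chromatin marks after replication, 3 were higher and 0 lower (medians 0.16 and 0.17). They were LMNB1, a structural gene of the nuclear lamina, EZH2, which methylates H3, and DNMT1, the maintenance DNA methyltransferase (263 against 197 and 232 against 184 CPM).

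Genes of sister chromatid cohesion, condensation and the spindle came next in the order of the cycle. Of 15 cohesion genes 7 were higher and 0 lower, with medians of 0.39 and 0.37. ESCO2 stood at 50.7 against 27.3 and 50.9 against 28.8 CPM, SMC3, a core cohesin subunit, at 93.9 against 68.4 and 89.6 against 66.1, and CDCA5, sororin, which protects cohesion, at 77.4 against 53.6 and 77.0 against 56.2. Of 18 condensin and mitotic chromosome genes, 13 were higher and 0 lower, with medians of 0.54 and 0.45. NCAPG of condensin I stood at 37.6 against 22.4 and 39.5 against 22.7, and HMGB2, an abundant chromatin protein, at 1647 against 981 and 1557 against 1010 CPM.

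Of 33 kinetochore and spindle genes, 23 were higher and 0 lower, with medians of 0.54 and 0.51, the highest of the lists examined. NUSAP1 stood at 212 against 111 and 192 against 112 CPM, and PRC1, which bundles midzone microtubules, at 51.9 against 27.6 and 41.9 against 28.6. Of 18 mitotic kinase, cyclin and exit genes, 8 were higher and 0 lower, with medians of 0.30 and 0.23. The mean of the libraries gave 0.28, and -0.03 when HIST1H4C was left out of the histone rule. AURKB, the kinase of the chromosomal passenger complex, stood at 125 against 70.6 and 127 against 76.3 CPM, CDK1 at 88.3 against 51.6 and 91.7 against 65.1, and FOXM1, the transcription factor of G2 genes, at 30.5 against 18.7 and 31.6 against 18.6. Of 22 G1/S cyclin, CDK and E2F genes 7 were higher and 0 lower (medians 0.21 and 0.15, for their mean 0.17, and -0.04 over genes at 50 CPM or more), and 4 of these 7 are among the 15 highest genes given above.

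**Figure D4:**
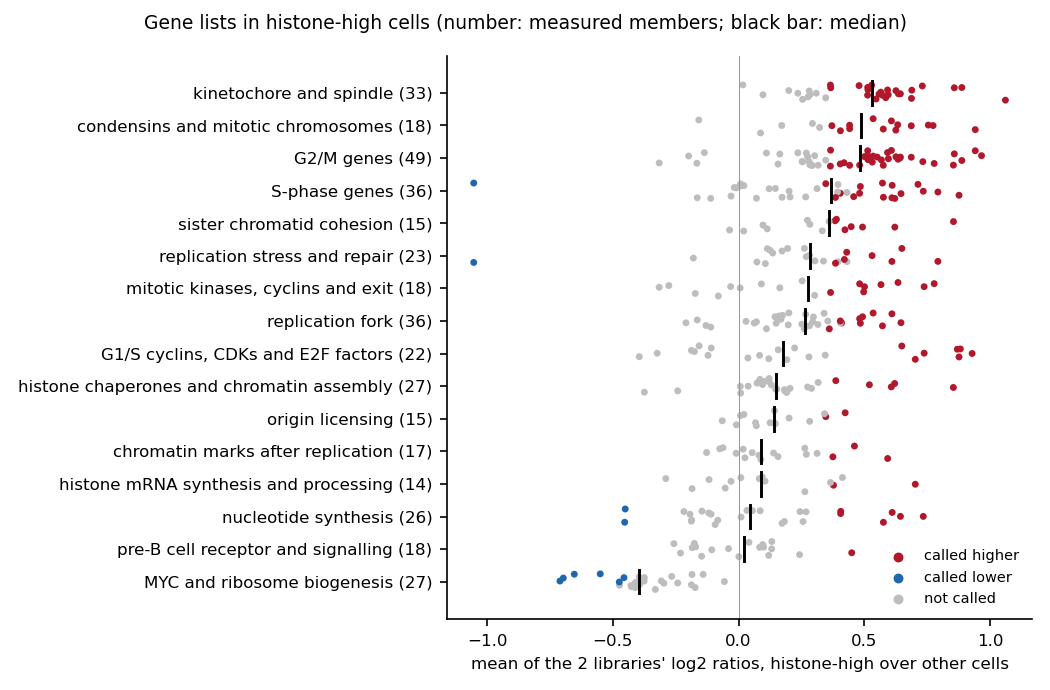
Each point is a measured gene of the list named on the y axis, placed at the mean of the log2 ratios of histone-high over other cells in both libraries (x axis), in red where called higher, blue where called lower and grey otherwise; black bars are list medians. The kinetochore and condensin lists lie furthest to the right and the ribosome biogenesis list (with MYC in its name) lies wholly to the left of 0.

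The list that lay lowest held genes of ribosome biogenesis, which build the subunits of new ribosomes in the nucleolus. All 27 measured members had a log2 ratio under 0 in both libraries, and 7 were called lower and 0 higher. The medians were -0.50 with ETV6-RUNX1, where 20 were lower, and -0.27 in the control, where 8 were. Over all genes 9.12% were lower in the ETV6-RUNX1 library by itself and 5.06% in the control by itself. NOP16, a nucleolar assembly factor, stood at 76.4 CPM in histone-high cells against 138 in the others with ETV6-RUNX1 and at 102 against 152 in the control, a log2 ratio of -0.85 (-0.98 to -0.72) and -0.57 (-0.69 to -0.45). RRP9, of the particle that processes early ribosomal RNA, stood at 28.7 against 49.1 and 38.7 against 55.9 CPM, RRP12 at 7.44 against 14.2 and 10.7 against 14.8, and the ribosomal RNA methyltransferase NOP2 at 12.5 against 21.2 and 18.8 against 23.9.

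Along the 20 bins the summed CPM of this list was highest in bin 1 and lowest in bin 20 of both libraries (7634 and 5041 with ETV6-RUNX1, 8248 and 6035 in the control). Ribosomal protein genes moved little but mostly downward, with 0 of 88 called higher or lower and a median of -0.08 and -0.10. In each library 5 of the 88 had a log2 ratio above 0. As a share of a cell's UMIs they had a median of 42.3% in histone-high and 44.3% in other cells with ETV6-RUNX1, and 40.2% and 42.7% in the control. Leaving histone, ribosomal protein and mitochondrial genes out of the totals moved the median log2 ratio of all genes by -0.04.

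The 15 lowest genes, from UNG to TRAF4, had mean log2 ratios between -1.05 and -0.72, and apart from UNG their levels in the other cells lay between 11.3 and 30.4 CPM, so that few UMIs stand behind each value. PCOLCE2 stood at 6.82 against 13.3 and 7.75 against 15.6 CPM, KAZN at 10.5 against 19.1 and 8.54 against 17.1, and CLUH, a binder of messages for mitochondrial proteins, at 13.3 against 24.0 and 13.9 against 24.9. TRAF4, a signalling adaptor, stood at 8.98 against 18.5 and 21.0 against 27.6. CD48, a surface receptor of leukocytes, stood at 9.91 against 17.7 and 15.6 against 23.8 CPM. No list examined holds these 5 genes. The remaining 9 were RP11-386G11.5, PRR5, BCAS4, NUDT8, SLC35F2, ANKLE1, HAR1A, CTA-29F11.1 and RP11-752G15.6.

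Most genes of B-cell identity were not called in both libraries, and IGLL1 was higher. IGLL1, a surrogate light chain component of the pre-B cell receptor, stood at 1385 against 1081 CPM with ETV6-RUNX1 and 2540 against 1744 in the control, a log2 ratio of 0.36 (0.32 to 0.39) and 0.54 (0.52 to 0.57). It was the 1 gene of 18 in the pre-B cell receptor and signalling list that was higher in both libraries, with 0 lower. Taken by itself, the ETV6-RUNX1 library had 1 higher and 4 lower, and the control 2 and 0. VPREB1, the partner of IGLL1, had log2 ratios of 0.06 and 0.20. Of 21 B-lineage transcription factors and 12 MHC class II genes, 0 were called in both libraries, with medians of 0.16 and 0.08 and of 0.04 and 0.04. With ETV6-RUNX1 by itself, 4 of the factors were higher and 1 lower, and in the control 2 and 0. For MHC class II these counts were 2 and 0, and 0 and 0. Over all genes the single-library shares were 11.1% higher and 9.12% lower with ETV6-RUNX1, and 8.17% and 5.06% in the control. PAX5 had 0.21 and 0.37, and EBF1 0.23 and 0.39. In the V(D)J recombination list of 12, the 2 higher genes were HMGB1 and HMGB2, DNA-bending proteins with many other roles, while RAG1 had 28.3 against 23.0 and 19.4 against 16.1 CPM.

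In metabolic and stress lists single genes were called in either direction, against the 5.04% higher and 2.86% lower over all genes. Glycolysis had 1 of 19 higher (PFKL) and 2 lower (HK2 and PFKP), cholesterol synthesis 1 of 15 higher (INSIG1) and 2 lower (DHCR7 and LSS), and immediate-early and heat shock genes 1 of 17 higher (BTG2). Of 16 stress response and p53 target genes 2 were higher, DDIT3 (92.6 against 65.4 and 86.8 against 64.8 CPM) and ASNS. Of 13 mitochondrially encoded genes 1 was higher and 0 lower.

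To show where histone-high cells differ from neighbouring stages, the top 15% of cells by summed share of the origin licensing list and the top 15% by the list of mitotic kinases, cyclins and exit genes were taken in the same way. Of the histone-high cells, 25.6% with ETV6-RUNX1 and 20% in the control were also licensing-high, and 15.3% and 13.9% also mitosis-high, against 15% of all cells. The groups have the same size, so each overlap is the same share of the other group. The median log2 ratio of kinetochore and spindle genes was 0.54 and 0.51 in histone-high, -0.01 and -0.02 in licensing-high and 0.83 and 0.68 in mitosis-high cells. That of S-phase genes was 0.38 and 0.29, 0.63 and 0.71, and -0.45 and -0.58 in the same order. Ribosome biogenesis genes had medians of -0.50 and -0.27 in histone-high cells, 0.02 and -0.03 in licensing-high and 0.37 and 0.24 in mitosis-high cells. Genes of the same stage as the genes that picked a group had to move with them, so these medians partly follow from the choice of cells. No test of these differences was possible with 1 library per construct, and cells can belong to more than 1 group.

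Of the motifs searched, CCAAT and TTTGAA were more frequent in promoters of genes called higher than in those of genes called lower. AAACACA was not, at 3.32% of higher and 3.82% of lower genes, nor was TATATA, at 1.24% and 1.53%. CCAAT, the site of NF-Y, was present on either strand in the 250 bases before the start in 61.0% of the 241 higher genes that matched RefSeq, 39.7% of 131 matched lower genes and 43.9% of 4705 matched measured genes. TTTGAA, the core of the cell cycle homology region bound by the DREAM complex, was present in 22.4%, 8.40% and 11.8%. The 120 bases before the start of MKI67 (chr10:128126424-128126543, minus strand, GRCh38.p14) are shown because they hold both, with TTTGAA beginning 47 and 29 bases before the start, the second overlapping a reverse CCAAT. Capitals mark TTTGAA and ATTGG.
MKI67: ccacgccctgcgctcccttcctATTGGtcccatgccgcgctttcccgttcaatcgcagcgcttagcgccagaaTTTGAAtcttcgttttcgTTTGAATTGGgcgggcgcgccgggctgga

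Between the libraries, histone-high cells of the ETV6-RUNX1 library were compared with those of the control at a ratio of 1.5-fold or more with an interval that excluded no difference. By this rule 61 of 5633 genes (1.08%) were higher and 106 (1.88%) lower with ETV6-RUNX1. Among the other kept cells 6 (0.107%) were higher and 21 (0.373%) lower. The 21 genes lower in the other cells were all among the 106, and 5 of the 6 higher ones were among the 61. The other cells hold several times more UMIs, and the part of this in the counts was not tested. At a floor of 50 CPM the histone-high counts were 5 and 15 of 1878 genes. The balance depended on the scaling here too, with 73 higher and 81 lower under TMM, 75 and 79 under median-of-ratios scaling, and 83 and 74 with totals that left out histone, ribosomal protein and mitochondrial genes. The ratio has no replicate check and compares these libraries.

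The genes furthest apart in histone-high cells were lower with the fusion. PTPRCAP, the CD45-associated protein, stood at 29.4 CPM with ETV6-RUNX1 and 134 in the control, a log2 ratio of -2.18 (-2.42 to -1.95), whereas in the other cells it had 39.7 and 105 CPM (log2 ratio -1.40, interval -1.48 to -1.31). LAT2, an adaptor of B-cell receptor signalling, stood at 14.4 and 64.8 CPM (-2.17), with -1.73 in the other cells. RASGRP2, an exchange factor for RAP1, stood at 24.8 and 86.3 CPM (-1.80), with -1.38 in the others. FAM129C stood at 20.3 and 60.4 (-1.57, with -1.23 in the others). These genes were picked for their ratio in histone-high cells, which favours a ratio further from 0 there than in the other cells, and the difference between the ratios was not tested.

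The other 4 of the 8 lowest were TRAF4 (-1.23, and -0.58 in the other cells), VMO1 (-1.19 and -0.22), ARHGAP4 (-1.18 and -0.59) and EXOSC4 (-1.12 and -0.60). IGLL1 stood at a log2 ratio of -0.87 in histone-high and -0.69 in other cells, and VPREB1 at -0.67 and -0.54. Over the 8 measured genes of a list taken from genes lowered in the whole libraries, the median was -1.33 in histone-high cells and -1.07 in the others. That list was chosen on these libraries and is no independent evidence of its direction.

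On the higher side, BCAS4 stood at 21.7 CPM with ETV6-RUNX1 and 7.43 in the control, a log2 ratio of 1.55 (1.06 to 2.05), with 0.92 in the other cells. KANK2, a regulator of the actin cytoskeleton, stood at 34.2 and 15.6 CPM (1.13, and 0.74 in the others), NKAIN4 at 38.0 and 18.2 (1.06 and 0.59) and AKAP12, a scaffold for protein kinase A, at 57.2 and 28.0 (1.03 and 0.47). ST6GAL1, GCSAM and EMP2 followed, with log2 ratios between 0.96 and 0.97 in histone-high cells and between 0.13 and 0.49 in the others. ST6GAL1, a sialyltransferase, stood at 21.4 and 10.9 CPM in histone-high cells and at 21.9 and 19.9 in the others, so that its control value among histone-high cells was the one apart. Over the 5 measured genes of a list raised in the whole libraries, likewise chosen on these libraries, the median was 1.06 in histone-high and 0.74 in other cells.

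**Figure D5:**
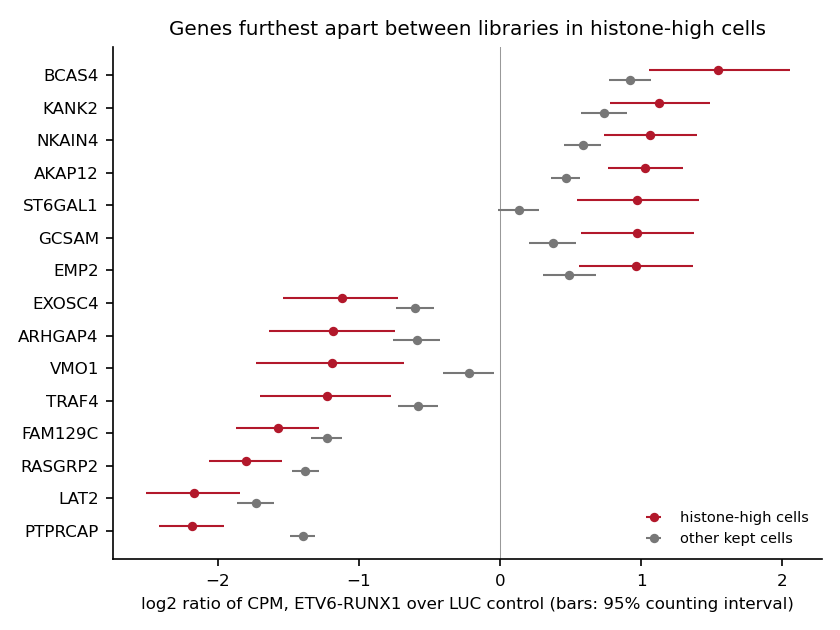
Log2 ratio of CPM, ETV6-RUNX1 over LUC control (x axis), for 7 of the genes with the highest ratio and the 8 with the lowest ratio in histone-high cells (y axis), in histone-high cells (red) and in the other kept cells (grey), with 95% counting intervals. PTPRCAP lies at -2.18 in histone-high and -1.40 in other cells and BCAS4 at 1.55 and 0.92; the genes were chosen on the red values.

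Of the rule genes, HIST1H4C had a log2 ratio of -0.03 in histone-high and in other cells. HIST1H1D had 0.52 in histone-high and 0.25 in other cells, and HIST1H1B 0.38 and 0.21. HIST1H1C had 0.33 and 0.32, HIST1H1E 0.38 and 0.38, and HIST2H2AC 0.16 and 0.06. The rule genes chose the cells within each library, so their ratios in histone-high cells are only a description. MXD3 was called higher with ETV6-RUNX1, at 0.63 in histone-high and 0.15 in other cells. TFDP1 was called lower, at -1.06 (-1.40 to -0.72) and -0.90. Of the 22 G1/S cyclin, CDK and E2F genes, 1 was higher and 2 lower between the libraries in histone-high cells. Over all genes these shares were 1.08% and 1.88%, and a count of 1 or 2 rests on few genes. The median over kinetochore and spindle genes was -0.0044 and -0.034, and that over S-phase genes 0.02 and -0.09. Ribosome biogenesis genes had a median of -0.33 in histone-high cells and -0.13 in the others. The median over all measured genes was -0.06 and -0.04.

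Among genes at 50 CPM or more, the ratio of histone-high over other cells differed most between the libraries for RGS16 (-0.21 with ETV6-RUNX1 and -0.71 in the control), NDUFAF4 (-0.72 and -0.24), TRIAP1 (-0.55 and -0.09), S1PR4 (0.39 and -0.06) and MYB (0.56 and 0.14). MYB, a transcription factor of blood progenitors, stood at 83.3 against 56.6 CPM with ETV6-RUNX1 and 56.9 against 51.6 in the control. These 5 were chosen for that difference, which was not tested. In 15 of the 5633 genes (0.266%) the ratio had opposite signs in the libraries with both intervals excluding 0.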

How the data were processed

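The authors deposited unnormalized UMI counts for 32738 genes in the barcodes of 2 libraries, made with Cell Ranger 3.0.2 on hg19, per the submitters' processing notes. The members and the 32 gene lists were chosen with earlier results of these data known. Symbols shared by several gene identifiers (91) were left out of the lists, and 11 of 572 listed symbols did not match.

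UMIs were summed over histone-high and other kept cells and scaled to CPM of each sum. Log2 ratios carry exact 95% intervals for a ratio of Poisson counts, and shares of cells exact (Clopper-Pearson) intervals. UMIs were taken as independent. Histone genes were left out of calls, and Y-linked genes are not named. Phases were scored with scanpy 1.11.5 on cells thinned to 8700 UMIs. Doublets, sought with Scrublet at an expected rate of 0.05 (14 and 16 kept cells marked, 0.618% and 0.856%), were left in; a single cell type gives such a caller little to work with. The ratio, its interval and the calls were checked on simulated Poisson counts with known fold changes. Those counts hold no spread between cells or cultures, so the check covers the calculation only.

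Named genes were the rule genes, up to 15 highest and 15 lowest called genes by mean log2 ratio, up to 4 members per list with the largest absolute ratio, up to 8 highest and 8 lowest called genes between libraries, the 5 genes at 50 CPM or more that differed most between libraries, every member of lists of 8 or fewer measured genes and the cell type markers; a result among these is left out. The 15 alternatives changed the cell filters, depth, histone rule, scaling (edgeR 4.0.16 for TMM), CPM floor, fold and doublets. Coordinates are GRCh38.p14 from RefSeq and were matched by symbol only, since counting used hg19.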

Additional observations from a re-analysis of the deposited data

Results flagged for a closer look

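Of the 5633 measured genes, 15 (0.266%) had opposite signs in the 2 libraries with both counting intervals excluding 0, and 2 of the genes named above were among them. AKAP12 was higher in histone-high than in other cells with ETV6-RUNX1, at a log2 ratio of 0.24 (0.07 to 0.40), and lower in the control, at -0.33 (-0.56 to -0.10). PTPRCAP had the reverse: its log2 ratio was -0.43 (-0.66 to -0.21) in the ETV6-RUNX1 library, and in the control library it was 0.35 (0.24 to 0.46). The difference between the libraries was not tested for either gene, since each construct had 1 library.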

How the results depend on the processing

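No paired analysis was possible because each construct had 1 library. Without HIST1H4C in the rule, 79 genes instead of 161 were lower (38 of them shared), the median log2 ratio of G2/M genes, averaged over libraries, was 0.21 instead of 0.48, and 40.3% instead of 22.6% of the chosen cells were called S. The G2/M median was 0.56 in thinned cells and 0.61 with cells weighted equally. A margin of 0.05 on the scores left 13.0% called S. A floor of 50 CPM, which tests fewer genes, gave 86 higher and 37 lower, and a 1.5-fold limit 46 and 19. Between libraries, genes higher and lower with ETV6-RUNX1 were 61 and 106, against 222 and 305 at a floor of 1 CPM, 5 and 15 at 50 CPM, and 4 and 12 at 2-fold. With fewer UMIs behind each value the lower count was larger, at 175 in thinned cells, 178 in the top 10% of cells and 168 when cells were chosen on part of the UMIs and measured on the rest; the cause was not tested. The other 77 values of these summary results stayed within their limits, but a like count can hold different genes. Of the 284 higher and 161 lower genes, 180 and 76 were also called in thinned cells, and 123 of the 284 without HIST1H4C. Of the 61 and 106 genes between libraries, 32 and 70 were also called on separate parts of the UMIs. The 3 rescalings moved the median of all genes by at most 0.06, and with it the balance of calls: for histone-high against other cells 216 higher and 234 lower under TMM, and between libraries 83 and 74 with totals that left out histone, ribosomal protein and mitochondrial genes. In histone-high cells 10 CPM is 64.6 and 63.3 UMIs, and each construct had 1 library.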
